A study of Mus musculus with 2 samples.

Results

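The microRNAs described here are the 38 genes of the Mir379 to Mir410 array, an imprinted cluster of microRNA precursors on chromosome 12 of the mouse. They were defined by position, as every GENCODE M21 microRNA gene on the plus strand from the start of Mir379 to the end of Mir410. The range is chromosome 12, 109709060 to 109743795, in build GRCm38, also called mm10. The array was chosen with earlier results of these data known. Its genes make up 38 of the 2202 microRNA genes with deposited counts. Counts came from small RNA of mouse hippocampus, taken from 14-day-old females of B6CASTF1/J, the first-generation hybrid of C57BL/6J and CAST/EiJ. There was 1 group with 2 biological replicates and no treatment or comparison group. Each replicate is labelled with 3 females, so that a library stands for a pool of animals, and each pool had 1 library. The tissue label speaks of a layer of the hippocampus and does not say which.

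The array belongs to the Dlk1-Dio3 imprinted domain, in which noncoding RNAs, including these microRNAs, are made from the maternally inherited chromosome. Its precursors are cut from long transcripts into hairpins, and each hairpin can give a mature microRNA from its 5p arm and its 3p arm. A mature microRNA guides an Argonaute protein to messenger RNAs mainly through its seed, bases 2 to 8, and lowers their translation or stability. In neurons the array is known for activity-dependent transcription and for members that act on dendrites and synapses.

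The array spans 34736 bases, and the median gap between neighbouring precursors was 522 bases, with a range from 20 (Mir679 to Mir1193) to 4368 (Mir544 to Mir382). Apart from microRNA genes on the opposite strand, the first 25 members, Mir379 to Mir544, lie in no other annotated gene. The last 13, Mir382 to Mir410, lie within Mirg, a long noncoding RNA gene of the same strand, 8 of them overlapping one of its exons and 5 within its introns. The annotated microRNA gene before the first member on this strand, Mir882, had 0 counts in both libraries, and the one after the last, Mir3072, stood at 288 and 294 CPM.

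Mature sequences for 37 of the 38 members were taken from RefSeq (build GRCm38.p6), which gave 69 sequences of 19 to 25 bases. For Mir487b, Mir376c, Mir539, Mir485 and Mir453 both arms were not listed, so a product of these genes may be missing here. The counts are per precursor gene and do not separate the arms, so a level cannot be assigned to one of the sequences of a gene. The sequences of the 5 leading members are shown first, because these genes hold more than any others of the array's counts. Capitals mark the seed.
mmu-miR-382-5p: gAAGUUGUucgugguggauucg
mmu-miR-382-3p: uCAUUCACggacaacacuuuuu
mmu-miR-487b-5p: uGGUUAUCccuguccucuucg
mmu-miR-541-5p: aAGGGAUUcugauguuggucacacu
mmu-miR-541-3p: uGGCGAACacagaauccauacu
mmu-miR-411-5p: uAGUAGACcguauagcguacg
mmu-miR-411-3p: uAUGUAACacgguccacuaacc
mmu-miR-379-5p: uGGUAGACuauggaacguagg
mmu-miR-379-3p: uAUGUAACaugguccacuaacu

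Seeds were mostly different from one another: the 69 listed sequences held 63 seeds, and 6 seeds were shared, each by 2 members. Arms that were not listed could not be compared, so further shared seeds may exist. The 3p products of Mir379 and Mir411, which are neighbours, share the seed AUGUAAC, and the 5p products of Mir379 and Mir1193 share GGUAGAC. The other shared seeds joined Mir376c with Mir376b, Mir453 with Mir496a, Mir494 with Mir410, and Mir1197 with Mir758. The sequences below are the partners not yet printed.
mmu-miR-1193-5p: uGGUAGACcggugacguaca
mmu-miR-376c-5p: gUGGAUAUuccuucuauguuua
mmu-miR-376b-5p: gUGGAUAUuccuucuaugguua
mmu-miR-453: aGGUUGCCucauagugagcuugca
mmu-miR-496a-5p: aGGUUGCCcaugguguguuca
mmu-miR-494-5p: aGGUUGUCcguguugucuucuc
mmu-miR-410-5p: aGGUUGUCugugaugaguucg
mmu-miR-1197-5p: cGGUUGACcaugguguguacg
mmu-miR-758-5p: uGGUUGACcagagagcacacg

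Of the 69 sequences, 11 have a seed that RefSeq also lists in a mature microRNA outside the array, such as mmu-miR-329-3p, which shares its seed with mmu-miR-362-3p. The most frequent 5-base run was GGUUG, searched on the mature strand alone. It was present in 12 of 69 sequences (17.4%) from 12 members, 9 of them 5p products, and in 40 of the 1610 other mouse mature sequences (2.48%). It was picked because it was the most frequent run, and it overlaps the next most frequent one, AGGUU, which was present in 10 sequences of the array (14.5%) and 38 of the others (2.36%). Among the 69 sequences 42.0% begin with U and 37.7% with A, beside 40.9% and 25.6% of all 1679 mouse sequences in the table.

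Reads assigned to microRNA genes totalled 4764797 in replicate 1 and 2852269 in replicate 2, while 40.8% and 37.1% of all reads mapped to several places and were not counted in a gene. Levels are given as CPM, each gene's counts scaled to the reads assigned to all microRNA genes in its library. They were not divided by gene length, since reads of this size class cover a mature product. A count of 0 allows a level of up to 0.630 CPM in replicate 1 and 1.05 in replicate 2, taking 3 counts as the limit. Reads carry no molecular identifiers, so such floors and all intervals given here cover counting error only. In bulk tissue, fewer cells of a type and less RNA per cell cannot be told apart. Of the marker microRNAs, the neuron-enriched list had 14 of 17 genes detected and held 2.66% and 2.85% of the counts. Most of its genes are copies, such as those of Mir124a and Mir9, and reads that mapped to several copies were not counted. Its share may therefore be too low and cannot be set beside that of the array.

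The array gave 376983 counts in replicate 1 and 219280 in replicate 2. These were 7.91% (exact Clopper-Pearson 95% interval 7.89 to 7.94) and 7.69% (7.66 to 7.72) of the assigned reads, with a mean of 7.80% ± 0.158 (SD, n = 2). The share of assigned reads was thus slightly higher in replicate 1, by more than the counting intervals. This order depends on the scaling. With library sizes scaled to set the bulk of genes to equal levels (TMM), as for the ratios below, the array's sum is higher in replicate 2. Without Mir543, the member that differed most between the libraries, it was 7.85% in replicate 1 and 7.32% in replicate 2. Leaving out Mir543 was chosen after seeing the data. The 21 other microRNA genes of the domain within 200 kb on the same strand together held 12.5% and 15.2%. In shares of assigned reads, their larger sum in replicate 2 rests on Mir127, at 52526 CPM in replicate 1 and 81114 in replicate 2. Without Mir127 their summed share was slightly lower in replicate 2, but with TMM library sizes it is higher there.

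A gene was called detected with at least 10 counts in both libraries, which held for 34 of the 38 members (89.5%), beside 409 of all 2202 microRNA genes (18.6%). The detected members had a median level of 602 CPM in replicate 1 and 812 in replicate 2, beside 85.2 CPM in both for the detected genes outside the array. In the same domain, 17 of the 21 other genes were detected. By mean level, 16 members were at 1000 CPM or more, a level that 110 genes of the whole table had, and 13 members were among the 100 most abundant genes.

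The 4 members that were not detected were Mir654, Mir453, Gm27379 and Mir1197. Mir654 and Mir453 had 0 counts in both libraries. Gm27379, an annotated precursor with no mature sequence matched in RefSeq, had 2 counts in each. Mir1197 had 8 counts in replicate 1 and 7 in replicate 2, just under the limit for detection. Its neighbours were far higher, since Mir323, after a gap of 71 bases, had 13281 and 6131 counts. Mir758, which shares the Mir1197 5p seed, had 119 and 94.

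**Figure D1:**
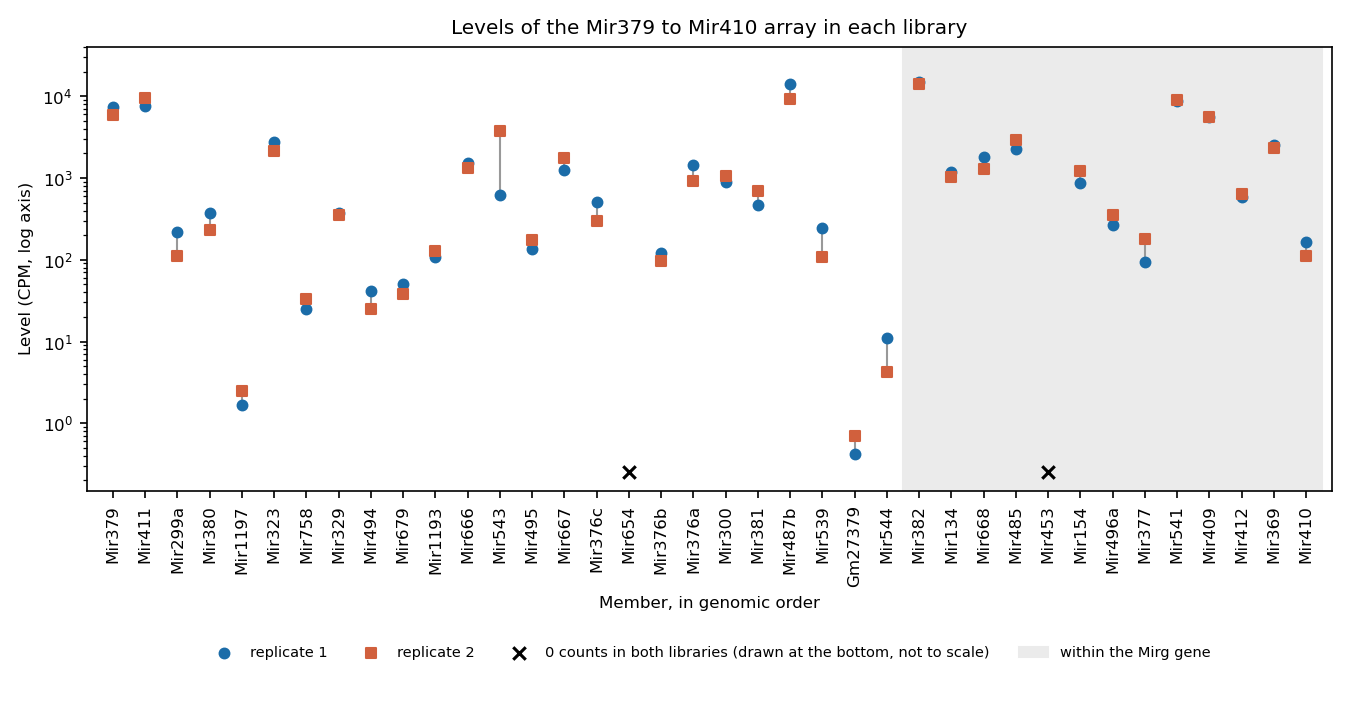
Levels of the 38 members in CPM on a log axis, in genomic order, with a circle for replicate 1, a square for replicate 2 and a grey line joining them. Grey shading marks the members within Mirg, and crosses mark Mir654 and Mir453, which had 0 counts. Levels above 0 ran from 0.420 CPM (Gm27379 in replicate 1) to 15012 CPM (Mir382 in replicate 1), and Mir543 has the widest gap between the libraries.

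Mir382 (ENSMUSG00000065428.4; chromosome 12, 109733771 to 109733846), which overlaps an exon of Mirg, was the most abundant member in both libraries, at 15012 CPM in replicate 1 and 14230 in replicate 2, or 14621 ± 553 (SD, n = 2). It held 19.0% and 18.5% of the array's counts. Mir487b (ENSMUSG00000076219.1; 109727333 to 109727414), which lies outside Mirg, stood at 14075 and 9340 CPM. Its mean of 11707 ± 3349 placed it next, but in replicate 2 it lay below Mir411. Mir487b shares a run of 20 bases with Mir376b, so reads from that stretch may be missing from its count.

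Mir541 (109742409 to 109742498), in an intron of Mirg, stood at 8683 and 8979 CPM. Mir411 (109710175 to 109710256), the second gene of the array, stood at 7533 and 9446 CPM. Its precursor shares a run of 21 bases with that of Mir758, so its level was treated as uncertain. The listed mature products of these genes share no run of that length. The means of Mir541 and Mir411, 8831 ± 209 and 8489 ± 1353 CPM, differed by less than the spread of Mir411, and their order was opposite in the 2 libraries.

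Mir379 (109709060 to 109709125), which gives the array its name and is the first gene in it, had 7334 CPM in replicate 1 and 5956 in replicate 2, a mean of 6645 ± 974. Mir409 (109743158 to 109743236) had 5493 and 5599 CPM, a mean of 5546 ± 74.9. Both kept their rank in the array, 5 for Mir379 and 6 for Mir409, in each library. Below them came a step to less than the level of Mir409 in either library. Mir485, Mir323 and Mir369 had means of 2621 ± 472, 2468 ± 451 and 2421 ± 108 CPM. These means differed by less than the spreads of Mir485 and Mir323.

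Mir543 followed at 2165 ± 2190 CPM, a mean that rests on replicate 2. Mir668 and Mir667 completed the 12 leading members at 1540 ± 362 and 1513 ± 356 CPM, and their order was opposite in the 2 libraries. The 3 leading members, Mir382, Mir487b and Mir541, held 45.0% ± 3.82 (SD, n = 2) of the array's counts. The leading 6 held 71.6% ± 2.70 and the leading 12 held 87.9% ± 0.321, so that the other 26 precursors shared the small remainder.

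**Figure D2:**
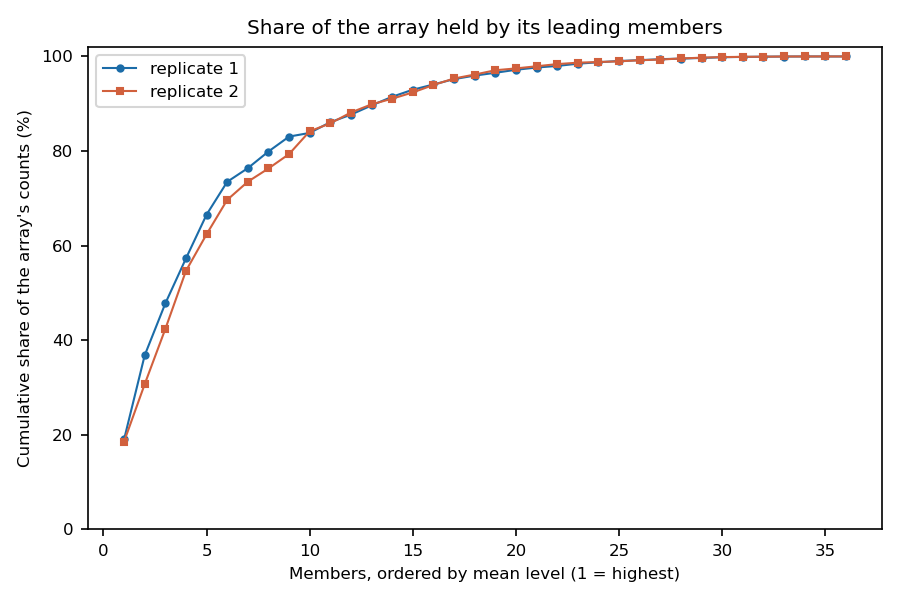
Cumulative share of the array's counts in percent against the number of members, ordered by mean level, for replicate 1 (circles) and replicate 2 (squares); the 2 members at 0 counts are left out. The curves pass 73.5% and 69.7% at 6 members and 87.7% and 88.1% at 12.

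High and low members lay side by side. Mir487b, at a mean of 11707 CPM, is followed 714 bases on by Mir539 at 241 and 107 CPM. In the short group at the end of the array, Mir409, Mir412, Mir369 and Mir410 lie within gaps of 52, 49 and 218 bases, and their means were 5546, 614, 2421 and 139 CPM. Over the 34 detected members, order along the array and mean level gave a Spearman rho of 0.16; the members share 2 libraries and are not independent. The 13 members within Mirg and the 25 outside it gave about the same total. Those in Mirg held 3.894% and 3.890% of all assigned reads, and those outside held 4.018% and 3.798%.

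Among the members that share a seed, Mir1193 stood at 109 CPM in replicate 1 and 128 in replicate 2, far below its partner Mir379. Mir494 (41.6 and 24.9 CPM) and Mir410 (166 and 112 CPM), the last gene of the array, form another pair. Mir758 had 25.0 and 33.0 CPM and Mir496a 266 and 352, while their partners Mir1197 and Mir453 were not detected. In these pairs, as in Mir376c and Mir376b, 1 gene had the greater part of the counts in both libraries, whereas Mir379 and Mir411 were close to each other in replicate 1. Outside these pairs, Mir154 stood at 874 and 1209 CPM and Mir679 at 51.2 and 37.9.

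Several members are known for roles in dendrites and at synapses. Mir134, which limits the size of dendritic spines, stood at 1177 CPM in replicate 1 and 1018 in replicate 2. Mir485, a regulator of synapse number, stood at 2287 and 2955 CPM. Mir329 and Mir381, which with Mir134 are needed for activity-dependent dendrite growth, had 377 and 350 CPM and 472 and 702 CPM. Mir485 was thus the highest of these 4 in both libraries and Mir329 the lowest. A listed product of each is shown, since these members are the ones best known in neurons. For Mir485 the 3p product alone was listed, so the sequence shown may not be the product with the role named. Which arm the reads came from was not recorded.
mmu-miR-134-5p: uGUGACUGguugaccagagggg
mmu-miR-485-3p: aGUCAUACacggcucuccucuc
mmu-miR-329-3p: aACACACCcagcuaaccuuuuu
mmu-miR-381-3p: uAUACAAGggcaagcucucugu

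Mir300, the gene before Mir381, shares a run of 16 bases with it, and their 3p products have the seeds AUGCAAG for Mir300 and AUACAAG for Mir381. It stood at 899 and 1055 CPM, above Mir381 in both libraries, and both genes were higher in replicate 2. Mir369, Mir496a and Mir543, which act on N-cadherin during neurogenesis, stood at 2497 and 2345, 266 and 352, and 616 and 3713 CPM. Mir495, for which Bdnf is a known target, had 135 and 177 CPM. The closely related Mir376a, Mir376b and Mir376c, precursors whose RNA is edited from A to I in brain, had 1454 and 922, 122 and 96.8, and 502 and 298 CPM. All 3 had lower CPM in replicate 2. Mir376b and Mir376c share a run of 31 bases and are uncertain.

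Of the members, 5 lie opposite an annotated microRNA gene on the minus strand: Mir299a, Mir380, Mir376a, Mir539 and Mir409. In the unstranded column their counts were at most 2 in a library, while in the sense column Mir409, for example, had 26175 and 15971. Counts opposite to the 38 members came to 1 in replicate 1 and 0 in replicate 2. The levels of these 5 members thus come from the sense column alone.

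The 2 pools were compared gene by gene by the log2 ratio of replicate 2 to replicate 1, with library sizes scaled by TMM, which sets the bulk of genes to equal levels. It was taken for the 450 genes that reached 20 counts over both libraries, among them 34 members. Each was tested by a two-sided exact binomial test with Benjamini-Hochberg adjustment over the 450 genes at 0.05. With 1 library per pool this compares these libraries, and differences between pools and between library preparations cannot be told apart.

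The members moved in both directions. Of the 34 tested, 16 (47.1%) were higher and 14 (41.2%) lower in replicate 2, and 4 did not pass; over all tested genes 32.9% were higher and 32% lower. With total counts as library sizes, every ratio is lower by 0.12, which gives 13 members higher and 18 lower. The median log2 ratio of the members was 0.02, beside 0.01 over all 450 genes, and the members' SD was 0.71, beside 1.02 over the 416 genes outside the array. The array has more reads per gene, so passing the test and the SD are not comparable on equal counts. Across the members, log2 CPM in the 2 libraries gave a Pearson r of 0.97 (n = 34, which share both libraries).

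A ratio over 2-fold was found for 2 members in each direction (5.88% each), beside 22% of all tested genes, 10.7% higher and 11.3% lower. These shares too are not comparable on equal counts, since the array has more reads per gene. Mir543 (ENSMUSG00000076241.2; 109717258 to 109717333) was counted 2936 times in replicate 1 and 10591 times in replicate 2, or 616 and 3713 CPM. Its log2 ratio was 2.71 (95% counting interval 2.65 to 2.77), a 6.56-fold difference. No other member was near it: the next, Mir377, had 449 and 506 counts and a log2 ratio of 1.03 (0.85 to 1.22). Without Mir543, a choice made after seeing the data, the SD over the members was 0.54.

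The genes on either side of Mir543 did not share its difference. Mir666, which ends 74 bases before it, had 1543 and 1327 CPM and a log2 ratio of -0.10 (-0.15 to -0.04). Mir495, 1420 bases beyond it, had a ratio of 0.51 (0.34 to 0.68). The 3p products of Mir543 and Mir495 share their last 12 bases but have different seeds, and they are shown with the 5p products for comparison.
mmu-miR-543-5p: aAGUUGCCcgcguguuuuucg
mmu-miR-495-5p: gAAGUUGCccauguuauuuuucg
mmu-miR-543-3p: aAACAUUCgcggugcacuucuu
mmu-miR-495-3p: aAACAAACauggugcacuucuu

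In the other direction, Mir544 had 52 counts in replicate 1 and 12 in replicate 2, or 10.9 and 4.21 CPM, with a log2 ratio of -1.25 (-2.29 to -0.33). Mir539 had 1150 and 304 counts and a ratio of -1.06 (-1.24 to -0.87). These genes lie close together, with Gm27379 between them. Their intervals and that of Mir377 include the 2-fold limit, so of the 4 members past it, Mir543 alone had its whole interval beyond it. With total counts as library sizes Mir377 fell under the limit.

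**Figure D3:**
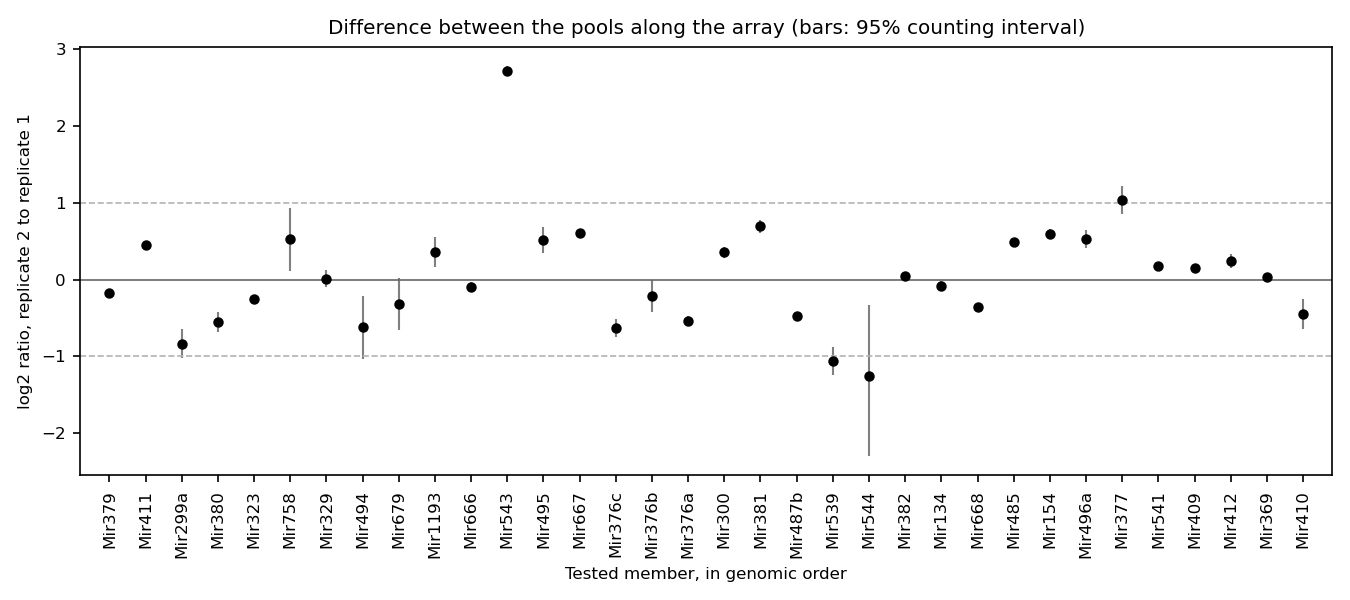
Log2 ratio of replicate 2 to replicate 1 for the 34 tested members in genomic order, with 95% counting intervals as bars (many are shorter than the point) and dashed lines at a 2-fold difference. Mir543 stands alone at 2.71, and the other members lie between -1.25 and 1.03.

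Of the 6 leading members, 4 were higher and 2 lower in replicate 2. Mir382 had a log2 ratio of 0.05 (0.03 to 0.06), which passed the test as higher but turned to -0.077 with total counts as library sizes, where it passed as lower. Mir541 and Mir409 were higher at 0.17 (0.15 to 0.19) and 0.15 (0.12 to 0.18), and Mir409 no longer passed with total counts. Mir411 was higher at 0.45 (0.43 to 0.47), whereas its neighbour Mir379 was lower at -0.18 (-0.20 to -0.15). Mir487b was lower at -0.47 (-0.49 to -0.45). The summed CPM of Mir379 and Mir411, whose 3p products share a seed, was 14867 in replicate 1 and 15402 in replicate 2.

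Of the other leading members, Mir667 was higher at 0.61, and Mir323 and Mir668 were lower at -0.25 and -0.36. Of the members that share a seed, Mir1193, Mir758 and Mir496a were higher, at 0.35, 0.52 and 0.53, and Mir494 and Mir410 were lower, at -0.62 and -0.45. Mir758 no longer passed with total counts, at 0.40. Mir154, Mir300 and Mir412 were higher, at 0.59, 0.35 and 0.24.

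Of the dendritic and synaptic members, Mir485 and Mir381 were higher in replicate 2, with ratios of 0.49 (0.45 to 0.53) and 0.69 (0.61 to 0.78). Mir134 was lower at -0.09 (-0.15 to -0.02), and Mir329 did not pass at 0.01 (-0.10 to 0.13; adjusted p = 0.862, exact binomial test). Mir376a and Mir376c were lower at -0.54 and -0.63, and Mir376b, at -0.21, did not pass (adjusted p = 0.0639, exact binomial test). Mir376b passed as lower in 3 alternatives, with total counts at -0.34, with no filter on counts at -0.29 and with a higher count minimum at -0.22. Mir679 and Mir369 also did not pass, at -0.31 (adjusted p = 0.0962, exact binomial test) and 0.03 (adjusted p = 0.211, exact binomial test). With total counts both passed as lower, Mir679 at -0.44 and Mir369, whose direction turned, at -0.091.

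Among the 5 members opposite a minus-strand microRNA gene, Mir299a (-0.83), Mir380 (-0.55), Mir376a and Mir539 were lower, and Mir409 was higher. Of the 12 tested members within Mirg, 8 were higher, 3 were lower and the median ratio was 0.16, with a range from -0.45 (Mir410) to 1.03. Of the 22 tested members outside it, 8 were higher, 11 were lower and the median ratio was -0.20. The difference between these parts of the array was not tested. Consecutive tested members, some with an untested gene between them, had ratios that differed by a median of 0.48 over 33 pairs. Over all 561 pairs of tested members it was 0.59.

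**Figure D4:**
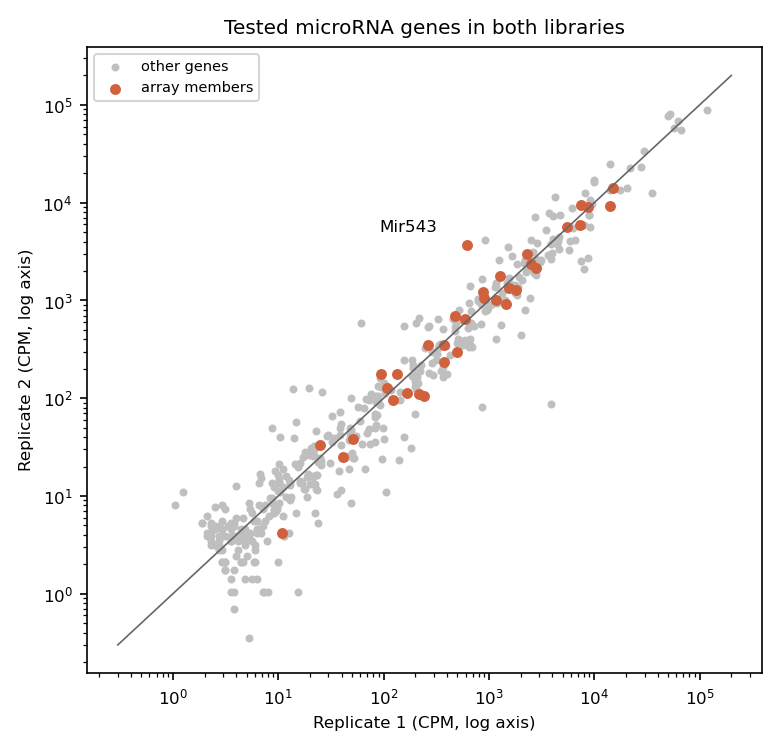
CPM in replicate 2 against replicate 1, on log axes, for tested microRNA genes with counts in both libraries, with array members in orange, other genes in grey and a line where the libraries are equal. Mir543 (616 and 3713 CPM) lies far above the line, Mir377 (94.2 and 177) lies above it, and Mir544 (10.9 and 4.21), Mir539 (241 and 107) and Mir299a (216 and 111) lie below it.

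Of the 17 tested genes elsewhere in the domain, 8 were higher, 4 lower and 5 did not pass, with a median log2 ratio of 0.16. Mir127, Mir770 and Mir433, its most abundant genes, gave 0.75, 0.29 and 0.18. Mir370 was lower by more than 2-fold, at 8043 and 2116 CPM. Marker lists of other cell types also took different shares in the pools. The choroid plexus and ciliated list (4 of 7 genes detected, Mir449b at 0 in both libraries) held 0.395% and 0.119% of the counts. The oligodendrocyte list (3 of 3) held 0.193% and 0.320%, the red blood cell list (3 of 3) 0.0290% and 0.0722%, the microglia and immune list (6 of 6) 0.247% and 0.188%, the astrocyte-associated list (4 of 4) 0.169% and 0.183%, and the vessel list (3 of 3) 1.60% and 2.03%. A summed share did not always follow its genes. The median log2 ratio was -0.17 in the red blood cell list and -0.46 in the vessel list, although both had larger shares in replicate 2. It was -1.42 in the choroid plexus and ciliated list, 0.67 in the oligodendrocyte list, -0.46 in the microglia and immune list, 0.66 in the astrocyte-associated list and 0.54 in the neuron-enriched list. The part of these lists in the members' differences was not tested.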

How the data were processed

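For each library the submitters deposited raw counts per microRNA gene, made on assembly mm10 with GENCODE M21 per the file headers of the accompanying text. Aligner and counter: not given in the sources used here. Of the stranded columns, the one with more reads was used as sense. Reads that were unmapped, mapped to several places or fell in no gene or in several stayed out of library sizes; 36.1% and 36.4% of reads were assigned to genes. All 2202 identifiers matched M21. CPM, TMM-scaled ratios (edgeR 4.0.16, R 4.3.3) and exact binomial tests (scipy 1.17.1, Python 3.11.15) were computed here for all genes reaching 20 counts over both libraries, with Benjamini-Hochberg adjustment. Genes sharing at least 20 bases with another microRNA gene, 5 of the members, were treated as uncertain. No model of replicate spread was fitted, since there was no contrast between conditions to test. The ratio and its binomial test were tried on simulated counts with counting noise only and total counts as library sizes. This does not test how they behave with spread between pools. Alternatives were other scalings (DESeq2 1.42.0 size factors or total counts), filters, detection minimums, thinning of the deeper library, the unstranded column, other denominators and leaving out a replicate. The members, lists and tests were chosen with earlier results of these data known. Named in full were the 12 leading members, those past 2-fold, those not detected, those sharing a seed, and the first and last; members with roles in neurons and neighbours of Mir543 were added after values were seen, as were Mir370, Mir882 and Mir3072 outside the array. Alternatives, leaving out Mir543 and leaving out members opposite another microRNA gene, were also chosen after seeing the data.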

Additional observations from a re-analysis of the deposited data

How the results depend on the processing

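Array share of assigned reads was 7.80%. It was 7.54% with the unstranded column, 8.71% without the most abundant gene in the total, 2.83% of all reads, and 7.69% to 7.91% when either replicate was left out. Detected members numbered 34, with 29 to 35 over all alternatives (34 to 34 with a replicate left out). The share of the 3 leading members was 45.0%, with 49.8% in the unstranded column and 42.3% to 47.7% with a replicate left out. The median log2 ratio was 0.02, and -0.10 with total counts. The SD of 0.71 became 0.54 without Mir543. Members past 2-fold numbered 3 or 4, and those past the test 25 to 31, the lowest in the unstranded column and without members opposite another microRNA gene, where fewer members are tested. With total counts Mir382, Mir369 and Mir329 turned to -0.077, -0.091 and -0.11. With no filter on counts they turned to -0.027, -0.041 and -0.059. No paired analysis was possible because there is 1 group. Mir376b and Mir679 gained a call with total counts, and Mir758 and Mir409 lost theirs. Depth left Mir1197 and Gm27379 undetected and untested, and Mir654 and Mir453, at 0 counts, have only an upper limit. Among the tested members, Mir544, Mir758 and Mir494 had the fewest counts.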
